A study of Mus musculus with 9 samples.

Results

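Ppara, Cpt1a, Cpt2, Acadm, Acadl, Ehhadh, Hadha and Pdk4 are 8 genes of fatty acid use: the nuclear receptor PPARα and genes of the oxidation programme it is known to control. They were picked by name, and each was measured by its highest-mean probe set among those annotated to a single gene. Each of the 8 had 1 such probe set, so no choice between probe sets was needed. They are 8 of the 19938 genes measured on 9 mouse whole-transcript arrays.

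PPARα is a receptor that binds fatty acids and, paired with a retinoid X receptor, activates genes of fatty acid breakdown. In liver it is best known for the response to fasting, when hepatocytes oxidise fatty acids delivered from fat tissue and make ketone bodies. Long-chain fatty acids enter mitochondria through the carnitine shuttle, are shortened there by β-oxidation, and very long or branched chains are first shortened in peroxisomes. Pyruvate dehydrogenase kinases act beside this pathway: by inhibiting the pyruvate dehydrogenase complex they hold back the oxidation of glucose carbon.

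The arrays form 3 groups of 3. AS lines are cultured angiosarcoma cell lines, established from hepatic endothelial cells of Notch1 knockout mice that had a visible angiosarcoma (AS, a tumour of vessel-lining cells), by long-term culture until the cells were uniform. KO livers are from MxCre Notch1 lox/lox mice, in which an interferon-inducible Cre deletes the exon for the Notch1 signal peptide. WT livers are from Notch1 lox/lox mice without that Cre. Both liver groups are C57Bl/6 and received 300 µg of polyinosinic-polycytidylic acid, an interferon inducer, on days 0, 3 and 6, starting at 4 weeks of age, so the controls had the inducer too. The labels give neither age at collection nor feeding state nor sex. MxCre acts in every cell type that answers interferon, hepatocytes included. The lines passed through culture and selection, so line and liver differ in much besides the tumour. A number after a group name is the replicate number of the labels.

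The promoters of 4 of the genes are shown because the results turn on them: Ppara and Ehhadh, which varied most among the livers, Cpt1a, the entry enzyme, and Pdk4, whose pattern differed from the rest. The 250 bases before the start used for each gene are given 5′ to 3′ on the gene's strand, from RefSeq on GRCm38.p6. For Ppara and Cpt1a that start lies inside the annotated gene span, which begins at 85734910 and 3322326. Their stretches are therefore not upstream of the whole gene, and positions below count from the start used. Capitals mark matches to the nuclear receptor half-site AGGTCA (reverse complement TGACCT) or to the GC box GGGCGG (reverse complement CCGCCC), searched on both strands.
Ppara, chr15:85735526-85735775, plus strand: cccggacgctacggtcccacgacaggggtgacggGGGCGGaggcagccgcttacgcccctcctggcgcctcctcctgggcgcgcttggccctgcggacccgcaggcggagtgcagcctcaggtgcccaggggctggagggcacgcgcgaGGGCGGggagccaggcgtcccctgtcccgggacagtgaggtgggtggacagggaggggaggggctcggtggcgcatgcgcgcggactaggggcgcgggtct
Ehhadh, chr16:21787835-21788084, minus strand: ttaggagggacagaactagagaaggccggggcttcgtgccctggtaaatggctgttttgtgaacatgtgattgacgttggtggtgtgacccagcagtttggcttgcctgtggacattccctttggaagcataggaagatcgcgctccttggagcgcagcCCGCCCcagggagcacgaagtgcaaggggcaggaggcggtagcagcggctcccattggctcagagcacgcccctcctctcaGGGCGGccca
Cpt1a, chr19:3323051-3323300, plus strand: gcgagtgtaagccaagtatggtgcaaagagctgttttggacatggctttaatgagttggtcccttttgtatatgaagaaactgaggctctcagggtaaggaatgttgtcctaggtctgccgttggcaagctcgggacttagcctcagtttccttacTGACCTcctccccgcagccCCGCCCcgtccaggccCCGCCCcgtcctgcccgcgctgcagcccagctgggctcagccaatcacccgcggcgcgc
Pdk4, chr6:5496279-5496528, minus strand: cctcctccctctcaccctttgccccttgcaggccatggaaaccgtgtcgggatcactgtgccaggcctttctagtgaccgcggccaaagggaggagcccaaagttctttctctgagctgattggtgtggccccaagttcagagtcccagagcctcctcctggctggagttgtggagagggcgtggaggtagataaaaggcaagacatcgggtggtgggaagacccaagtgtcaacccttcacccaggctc
All 8 genes had an entry in the promoter table. The half-site lay in 2 of the 8, Cpt1a at positions -94 to -89 from the start and Acadm at positions -249 to -244, and in 14% of all 32851 promoters of the table. The direct repeat AGGTCANAGGTCA, the textbook arrangement for PPAR with its partner, lay in 0 of the 8 and in 0.0335% of all promoters, and every direct repeat also holds the half-site. A GC box lay in 6 of the 8, all but Acadm and Pdk4, and in 32.7% of all promoters. These are letter matches within 250 bases and show nothing about binding.

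As a check of the labels, Notch1 was lower on each KO liver array than on each WT liver array (log2 means 8.37 ± 0.47 and 11.47 ± 0.39, SD, n = 3 each), though its adjusted p in limma was 0.0995. Where its probes lie relative to the deleted exon was not examined. The AS lines did not carry the markers of their labelled origin: the mean log2 value of 15 endothelial genes was 6.19 to 6.63 in AS lines, 11.80 to 12.20 in KO livers and 11.77 to 11.87 in WT livers, and Cdh5, the endothelial cadherin, averaged 5.52, 12.91 and 12.79. Keratin 19, a bile duct and epithelial gene, averaged 11.98 in AS lines, 5.74 in KO livers and 6.45 in WT livers, and Hnf4a, a hepatocyte and epithelial transcription factor, 10.80, 8.44 and 9.91. Keratin 19 is 1 of 8 listed bile duct genes, which did not move together. In AS lines against WT livers 3 of the 8 were higher and 1 lower at an adjusted p under 0.05 in limma, as were 17.6% and 11.1% of all genes. Of the 8 differences 4 were positive, with a median of -0.06. Epcam, another of the 8, had 5.71, 5.56 and 6.02 in AS lines, against 6.77, 5.84 and 6.00 in WT livers. Hnf4a is 1 of 31 listed hepatocyte genes, which mostly went the other way. At the same threshold 16 of the 31 were lower and 0 higher in AS lines than in WT livers. Of those differences 2 were positive, with a median of -3.40. Against KO livers 6 were lower and 0 higher, as were 10.1% and 11.4% of all genes. There 8 differences were positive, with a median of -2.07. The mean of 31 hepatocyte genes was 8.01, 9.93 and 8.09 in AS lines 1, 2 and 3, then 10.51, 12.56 and 9.10 in KO livers 1, 2 and 3, and 11.17, 12.35 and 12.40 in WT livers 1, 2 and 3. KO liver 3 stood apart from all other arrays in its mean of 3 Y-linked genes, 8.11 against 4.16 to 4.37. By these genes it was the only liver that read as male, so sex was not balanced between KO and WT livers. The part of sex in the differences below was not tested. T and NK cell genes averaged 6.49 to 6.70 in KO livers, against 6.37 in WT liver 1 and 8.51 and 8.49 in WT livers 2 and 3.

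Ppara encodes the receptor itself. Its log2 values were 7.03, 9.72 and 6.52 in AS lines 1 to 3, then 7.17, 9.87 and 6.41 in KO livers 1 to 3, and 7.56, 9.30 and 9.07 in WT livers 1 to 3. Line 2 and KO liver 2 had the highest values of the 9 arrays and the WT livers lay within the span of the KO livers, so all 3 groups overlapped. AS lines averaged 7.76 ± 1.72, KO livers 7.82 ± 1.82 and WT livers 8.64 ± 0.94 (SD, n = 3 each). KO livers minus WT livers came to -0.83 with a standard error of 1.00 (adjusted p = 0.628 in limma), and the 95% interval ran from -3.30 to 1.65. An interval this wide includes a 2-fold change in either direction.

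**Figure D1:**
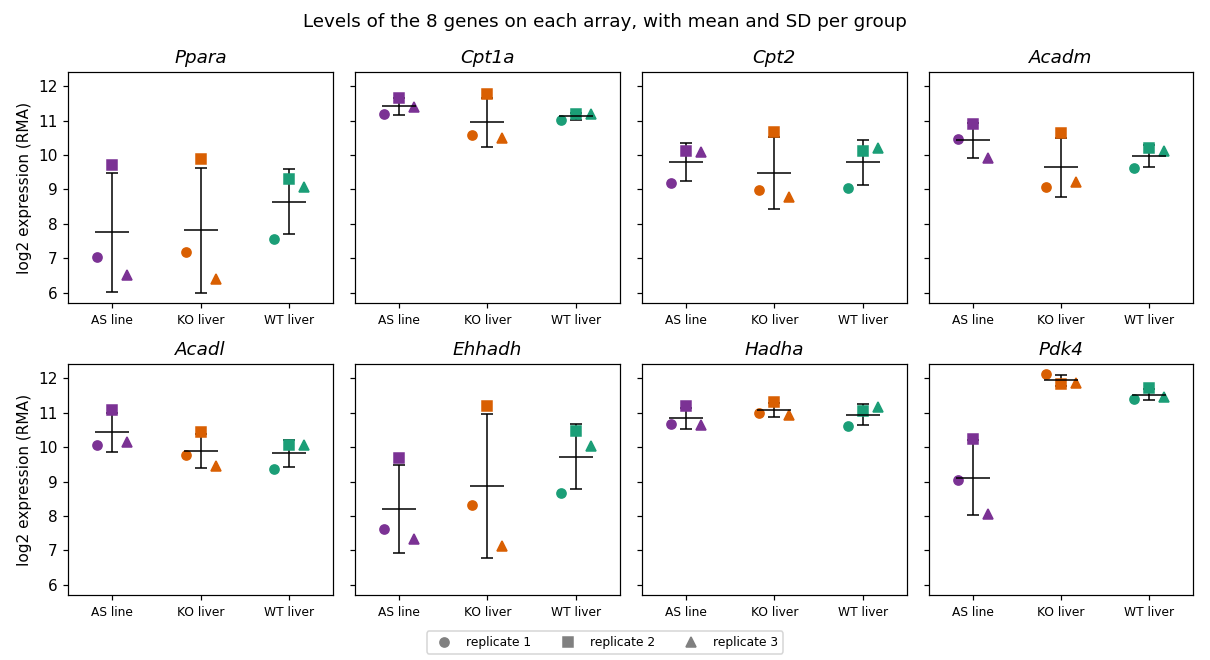
Log2 expression of the 8 genes, 1 panel a gene, with AS lines, KO livers and WT livers along the horizontal axis. Each symbol is 1 array, with its shape giving the replicate number, and bars show the mean and SD of 3 arrays; replicate 2 of the KO livers is the highest liver in every panel but Pdk4, and Pdk4 is lower in every AS line than in every liver.

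Cpt1a and Cpt2 are the carnitine palmitoyltransferases of the outer and inner mitochondrial membrane, and the first is the rate-limiting entry step. Cpt1a had 11.18, 11.66 and 11.41 in AS lines 1 to 3, then 10.60, 11.78 and 10.48 in KO livers 1 to 3, and 11.02, 11.18 and 11.18 in WT livers 1 to 3. KO liver 2 lay above all WT livers and KO livers 1 and 3 lay below them. Cpt2 had 9.18, 10.13 and 10.10 in AS lines 1 to 3, then 8.98, 10.68 and 8.77 in KO livers 1 to 3, and 9.04, 10.12 and 10.20 in WT livers 1 to 3. Again KO liver 2 was highest, and here WT liver 1 was close to KO livers 1 and 3. KO livers minus WT livers was -0.17 (SE 0.355) for Cpt1a and -0.31 (SE 0.600) for Cpt2, with adjusted p of 0.775 and 0.762.

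Acadm and Acadl encode the medium- and long-chain acyl-CoA dehydrogenases, which start each round of mitochondrial β-oxidation. Acadm had 10.48, 10.91 and 9.90 in AS lines 1 to 3, then 9.07, 10.64 and 9.21 in KO livers 1 to 3, and 9.62, 10.22 and 10.12 in WT livers 1 to 3. KO liver 2 exceeded every WT liver, while KO livers 1 and 3 were below every WT liver. Acadl had 10.05, 11.09 and 10.14 in AS lines 1 to 3, then 9.77, 10.44 and 9.46 in KO livers 1 to 3, and 9.36, 10.05 and 10.05 in WT livers 1 to 3. For Acadl each AS line was above the highest WT liver, in line 1 by less than the second decimal shows, so these groups did not overlap. The difference between AS lines and WT livers in Acadl was 0.61 (SE 0.345, adjusted p = 0.254), and AS lines lay above WT livers without overlap in 28.3% of all genes.

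Hadha encodes the α-subunit of the mitochondrial trifunctional protein, which carries out the later steps for long chains. Its values were 10.67, 11.20 and 10.65 in AS lines 1 to 3, then 10.99, 11.32 and 10.94 in KO livers 1 to 3, and 10.60, 11.06 and 11.16 in WT livers 1 to 3. The 9 values stayed within a narrow band and the groups overlapped. KO livers minus WT livers was 0.14 (SE 0.185, adjusted p = 0.650), with a 95% interval from -0.32 to 0.60, so the interval leaves out a 2-fold change of Hadha in either direction.

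Ehhadh encodes the bifunctional enzyme of peroxisomal β-oxidation and is a widely used marker of PPARα activity in rodent liver. It had 7.61, 9.67 and 7.34 in AS lines 1 to 3, then 8.33, 11.18 and 7.12 in KO livers 1 to 3, and 8.67, 10.46 and 10.04 in WT livers 1 to 3. The KO livers held both the highest and the lowest liver value, and line 2 stood above lines 1 and 3 by 2.07 and 2.34. AS lines averaged 8.20 ± 1.28, KO livers 8.88 ± 2.09 and WT livers 9.72 ± 0.93 (SD, n = 3 each). The difference was -0.85 (SE 1.11, adjusted p = 0.655) for KO livers minus WT livers and -1.52 (SE 0.768, adjusted p = 0.206) for AS lines minus WT livers.

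Pdk4 encodes the pyruvate dehydrogenase kinase that PPARα and fasting are known to induce. It had 9.05, 10.25 and 8.05 in AS lines 1 to 3, then 12.11, 11.83 and 11.87 in KO livers 1 to 3, and 11.40, 11.72 and 11.46 in WT livers 1 to 3. Every AS line was below every liver, and every KO liver was above every WT liver, by a narrow margin between KO liver 2 and WT liver 2. Averages were 9.11 ± 1.10 in AS lines, 11.94 ± 0.15 in KO livers and 11.53 ± 0.17 in WT livers (SD, n = 3 each). Unlike the 7 other genes, Pdk4 had its lowest KO liver value in KO liver 2.

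Between KO livers and WT livers, 0 of the 8 genes passed an adjusted p of 0.05 in limma, as did 0% of the 19938 genes. At an unadjusted p under 0.05 there was 1 of the 8, Pdk4, and 22.5% of all genes. Pdk4 was 0.41 higher on the log2 scale in KO livers (SE 0.121, 95% interval 0.11 to 0.71, unadjusted p = 0.0163 and adjusted p = 0.145 in limma). After scaling to the 75th percentile its difference was 0.23 and its unadjusted p was no longer under 0.05, nor was it without WT liver 1. It was also the 1 gene of the 8 whose groups did not overlap, higher in 3 of 3 KO livers, which 19.2% of all genes were. The mitosis genes averaged 9.37, 8.001 and 8.89 in KO livers 1 to 3, against 7.04, 7.14 and 7.24 in WT livers 1 to 3, and their part in the Pdk4 difference was not tested. Of the 8 differences 3 were positive, Pdk4 and, as deposited though not after scaling to the 75th percentile, Hadha and Acadl. The median of the 8 was -0.24, against -0.00 over all genes, but it rested on single arrays. It was -0.71 with 2 of 8 positive without KO liver 2, 0.05 with 6 of 8 positive without KO liver 3 and -0.38 with 1 of 8 positive without WT liver 1. KO liver 3 is also the array that stood apart in the Y-linked genes. Without KO liver 2, Cpt1a passed the threshold with a difference of -0.59 (adjusted p = 0.0304 in limma), while 1949 genes in all passed, 1671 higher and 278 lower.

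**Figure D2:**
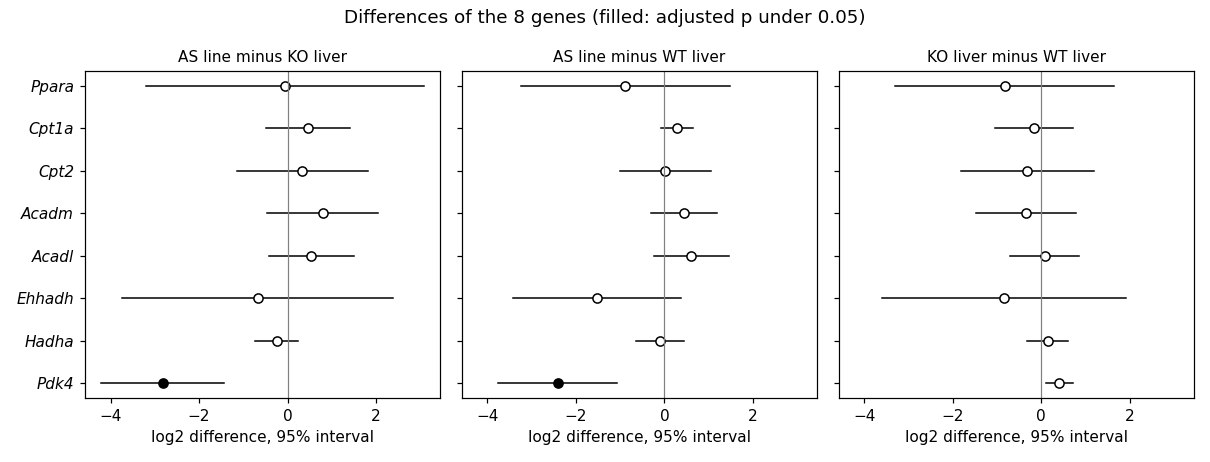
Log2 differences of the 8 genes for AS lines minus KO livers, AS lines minus WT livers and KO livers minus WT livers, 1 panel each. Points are limma estimates from 3 arrays a group and lines are 95% intervals; Pdk4 is the 1 filled point against KO livers and against WT livers, and the intervals of Ppara and Ehhadh are the widest in each panel.

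The genes differed in how far the 6 livers spread. Ehhadh spanned 4.06 on the log2 scale over the 6 livers and Ppara 3.46, followed by Cpt2 with 1.91, Acadm with 1.57, Cpt1a with 1.29 and Acadl with 1.09. Hadha spanned 0.72 and Pdk4 0.71. The SD of Ehhadh over the livers was larger than that of 99.0% of all genes and that of Ppara larger than 98.5%, while Hadha and Pdk4 exceeded 66.0% and 70.6%. Over the 6 livers KO liver 2 was highest for 7 of the 8 genes, with WT livers 2 and 3 next in each of those 7. Pdk4 had another order, with all 3 KO livers first and WT liver 1 last.

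The order of the 7 genes was close to that of the hepatocyte genes on the same arrays. In bulk tissue, fewer cells of a type and less RNA per cell cannot be told apart. In a fit over the 6 livers with genotype and the mean of 31 hepatocyte genes, Ehhadh rose by 1.21 (SE 0.0905) and Ppara by 1.07 (SE 0.111) for each log2 unit of that mean. The median slope of the 31 hepatocyte genes themselves was 1.04 and that of all genes -0.01. The slopes of the 31 average 1 by construction, because their own mean is the predictor. Lower slopes were found for Cpt2 at 0.62 (SE 0.0998), Acadm at 0.44 (SE 0.104), Cpt1a at 0.35 (SE 0.0735), Acadl at 0.33 (SE 0.0534) and Hadha at 0.16 (SE 0.0579). Pdk4 had a slope of 0.00 (SE 0.0602). The receptor and the peroxisomal enzyme thus moved with the hepatocyte genes nearly 1 for 1, the shuttle and dehydrogenase genes by less, and Pdk4 did not follow them. The slopes are given as a description, since they rest on 6 livers spread unevenly along that mean. KO liver 2 and WT livers 2 and 3 lay close together at 12.35 to 12.56. WT liver 1, KO liver 1 and KO liver 3 lay lower and apart, at 11.17, 10.51 and 9.10.

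**Figure D3:**
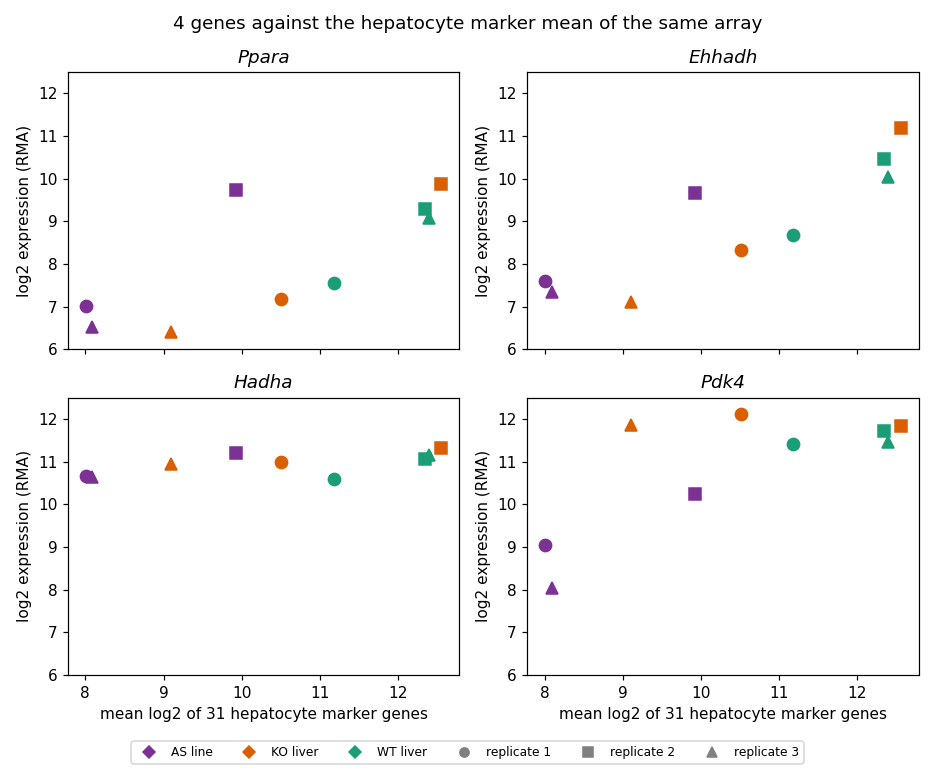
Log2 expression of Ppara, Ehhadh, Hadha and Pdk4 (vertical axes) against the mean log2 value of 31 hepatocyte genes on the same array (horizontal axis), with colours for AS lines, KO livers and WT livers and shapes for replicate numbers. Among the livers, Ppara and Ehhadh climb with the hepatocyte mean, Hadha climbs little and Pdk4 stays level.

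With the hepatocyte mean in the fit, the difference of KO livers minus WT livers was positive for 8 of 8 genes and for 10562 of all 19938. The medians were 0.44 for the 8 and 0.02 over all genes. Ppara then came to 0.51 (SE 0.277, adjusted p = 0.355 in limma) and Ehhadh to 0.66 (SE 0.226, adjusted p = 0.231), where the fit without the hepatocyte mean had negative values. Acadl came to 0.48 (SE 0.133, adjusted p = 0.202) and Cpt2 to 0.47 (SE 0.249, adjusted p = 0.353). Pdk4 stayed at 0.41 (SE 0.150, adjusted p = 0.246). In this fit 0 of the 8 genes passed the threshold. It was not repeated with single arrays left out. Over these livers the genes other than Pdk4 were correlated, up to 0.995 for Ppara with Ehhadh, so the 8 signs are not separate results. None of the 8 genes is in the hepatocyte list, and the sign of 5 of the 8 differences depended on whether its mean was in the fit.

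**Figure D4:**
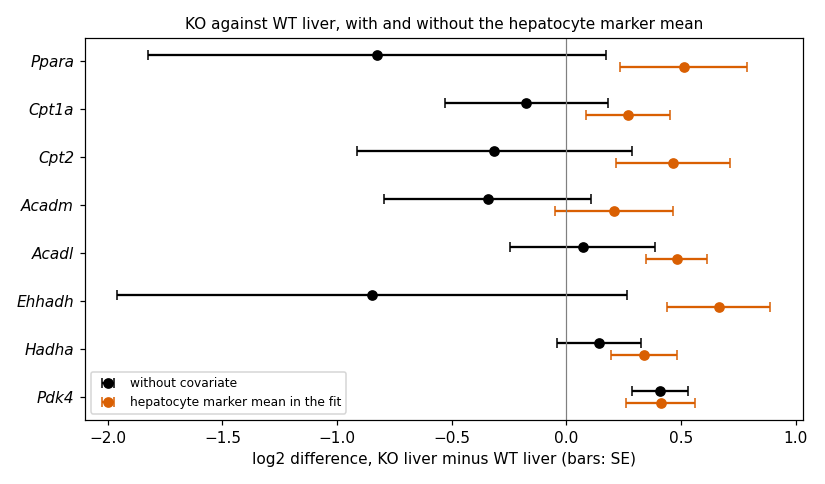
Log2 difference, KO livers minus WT livers, of the 8 genes without a covariate and with the hepatocyte marker mean in the fit, with bars of 1 standard error from 3 arrays a group. Ppara, Cpt1a, Cpt2, Acadm and Ehhadh lie below 0 without the covariate and above it with the covariate, and Pdk4 lies at 0.41 in both.

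In the AS lines, 1 of the 8 genes differed from the livers past the threshold, against KO livers and against WT livers alike. Pdk4 was lower by 2.82 on the log2 scale than in KO livers: the difference was -2.82 (SE 0.555, 95% interval -4.22 to -1.43, adjusted p = 0.0212 in limma). Against WT livers it was -2.41 (SE 0.542, 95% interval -3.76 to -1.07, adjusted p = 0.0234 in limma). The 3 lines lay below all livers, and AS lines were lower without overlap in 16.7% of all genes against KO livers and in 19.5% against WT livers. Among all genes, 10.1% passed as lower and 11.4% as higher against KO livers, and 11.1% and 17.6% did against WT livers. Both comparisons share the 3 AS lines, so they are not independent. With any 1 array left out Pdk4 stayed lower in AS lines, but its adjusted p was above 0.05 in 4 of 6 such fits against KO livers (up to 0.0840) and in 4 of 6 against WT livers (up to 0.0862).

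The 7 other genes did not pass in either comparison. Cpt1a was 0.46 (95% interval -0.49 to 1.42) for AS lines minus KO livers and 0.29 (-0.07 to 0.65) for AS lines minus WT livers, with adjusted p of 0.463 and 0.200. Acadm was 0.79 (-0.47 to 2.05) and 0.45 (-0.29 to 1.19), with adjusted p of 0.344 and 0.329. Cpt2 was 0.33 (-1.15 to 1.81) and 0.02 (-1.01 to 1.04), and Hadha -0.24 (-0.73 to 0.24) and -0.10 (-0.65 to 0.44). The Hadha intervals leave out a 2-fold change in both comparisons and the Cpt1a interval does so against WT livers, whereas the Ppara intervals, -3.20 to 3.07 and -3.25 to 1.47, cover far more. Without KO liver 2, Cpt1a was 0.87 higher in AS lines than in KO livers (adjusted p = 0.0347 in limma) and Pdk4 had an adjusted p of 0.0599. In that fit 8.40% of all genes passed as higher and 8.84% as lower. Without AS line 2, Ehhadh was lower in AS lines than in WT livers, at -2.25 (adjusted p = 0.0448 in limma). There 16.5% of all genes passed as higher and 10.5% as lower.

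The lines differed among themselves in some of the 8 genes. AS line 2 exceeded lines 1 and 3 by 2.70 and 3.20 for Ppara, by 2.07 and 2.34 for Ehhadh and by 1.20 and 2.20 for Pdk4. Its hepatocyte mean was also the highest of the lines, 9.93 against 8.01 and 8.09, and its mean of 9 mitosis genes the lowest, 7.26 against 10.74 and 8.72. Whether either has a part in the higher Ppara, Ehhadh and Pdk4 values of line 2 was not tested. For Cpt1a and Hadha the lines lay within 0.48 and 0.55 of each other.

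The wider pathway was followed through lists of genes chosen by their known roles. Between KO livers and WT livers, 0 genes of any list passed. In mitochondrial β-oxidation 4 of 17 genes had a positive difference (median -0.11), and among 22 further PPARα targets 3 did (median -0.15), as did 9927 of all 19938 genes. These tallies moved with the array left out, the scaling and the hepatocyte mean. For mitochondrial β-oxidation they ran from 0 of 17 (without WT liver 1) to 10 of 17 (without KO liver 1), were 0 of 17 after scaling to the 75th percentile and 15 of 17 (median 0.32) with the hepatocyte mean in the fit. Of all 19938 genes, 5841 were positive after that scaling (median -0.18) and 10562 with the hepatocyte mean (median 0.02). For the further targets they ran from 3 to 8 of 22 (8 without WT liver 2), and were 14 of 22 (median 0.16) with the hepatocyte mean. The largest differences in the uptake list were Slc27a5, Slc27a2 and Fabp1, which import, activate or bind fatty acids in hepatocytes. They came to -1.74 (SE 1.24), -1.55 (SE 1.26) and -1.54 (SE 1.08), with adjusted p of 0.425, 0.480 and 0.422. Cyp4a14, a fatty acid ω-hydroxylase and PPARα target, had 9.46, 12.74 and 5.35 in KO livers 1 to 3, against 9.71, 11.13 and 10.20 in WT livers 1 to 3. It had the same array order among the KO livers as Ppara, with a difference of -1.16 (SE 1.83, adjusted p = 0.711). Without KO liver 2, an array chosen for this after its values were seen, 3 of 22 of these targets passed, all lower, as did 3 of 12 genes of the carnitine list (1 higher, 2 lower) and 0 of 17 mitochondrial β-oxidation genes. In that fit 9.78% of all genes passed, 8.38% as higher and 1.39% as lower.

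In the AS lines, 0 of 17 genes of mitochondrial β-oxidation passed in either direction, where 21.4% of all genes did against KO livers and 28.7% against WT livers. Their median difference was 0.54 against KO livers and 0.43 against WT livers, and that of all genes 0.05 and 0.02. With 1 array left out the list's median ran from 0.29 (without AS line 2) to 0.97 (without KO liver 2) against KO livers and from 0.13 (without WT liver 1) to 0.56 against WT livers. It was 0.17 against WT livers without AS line 2, and 0.22 after scaling to the 75th percentile, where the median of all genes was -0.19. Echs1, the mitochondrial enoyl-CoA hydratase, had the largest difference of the list from KO livers at 1.14 (SE 0.374, adjusted p = 0.0930). Hadh, the short-chain hydroxyacyl-CoA dehydrogenase, came to 0.95 (SE 0.371, adjusted p = 0.142) against KO livers and 0.47 (SE 0.257, adjusted p = 0.243) against WT livers. Without KO liver 2, 6 of the 17 passed as higher in AS lines than in KO livers, where 8.40% of all genes did. Without AS line 3 it was 1 of 17 in each comparison. In peroxisomal β-oxidation 1 of 15 genes passed in each comparison, Abcd2, a peroxisomal transporter of very long-chain acyl-CoA. Abcd2 had 5.13, 5.14 and 5.06 in AS lines, then 7.12, 8.82 and 6.94 in KO livers, and 7.05, 7.91 and 7.66 in WT livers. It fell by 2.52 against KO livers (adjusted p = 0.0249) and by 2.43 against WT livers (adjusted p = 0.00114). The Abcd2 call held in all 6 fits that left out 1 array against WT livers, but was lost against KO livers without KO liver 1 or any 1 AS line. Without AS line 2, 2 of the 15 passed against WT livers, where 27.1% of all genes did. Without KO liver 2 it was 3, 2 of them higher, where 17.2% of all genes passed and 8.40% as higher. Without WT liver 1 it was 4, all lower, where 10.3% of all genes passed as lower.

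**Figure D5:**
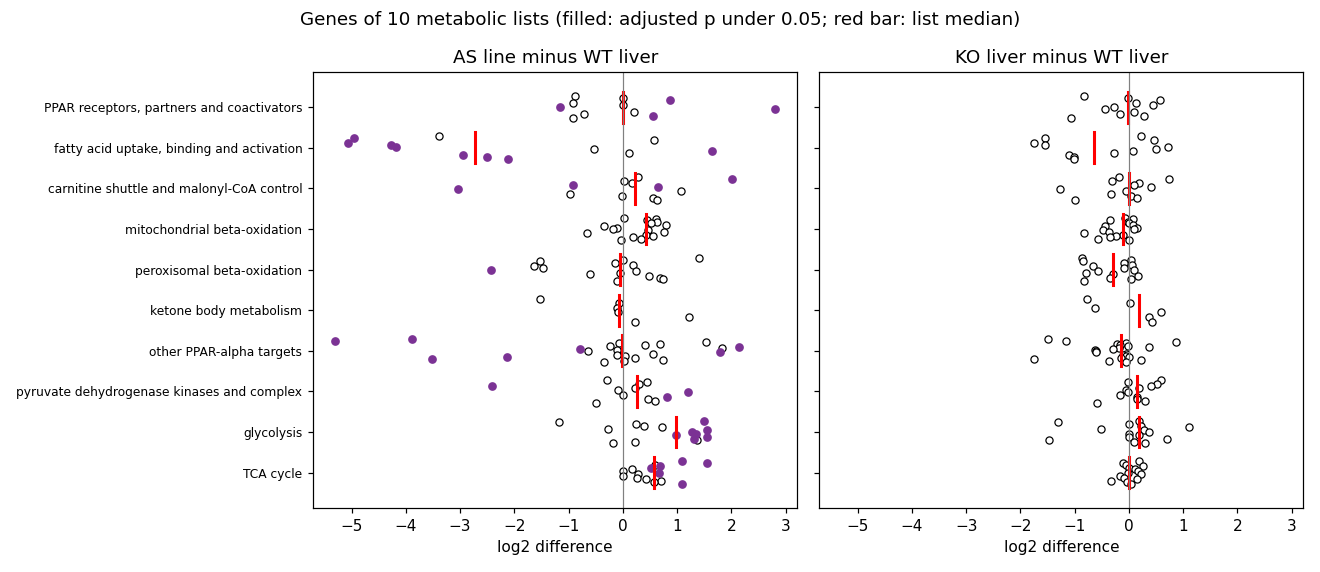
Log2 differences of the measured genes of 10 metabolic lists (rows), for AS lines minus WT livers on the left and KO livers minus WT livers on the right. Each point is 1 gene estimated from 3 arrays a group, filled points passed an adjusted p of 0.05 and red bars are list medians. On the left 7 of 12 uptake genes fell, as did 11.1% of all genes. There 7 of 15 glycolysis genes and 6 of 15 TCA cycle genes rose, as did 17.6% of all genes. No point on the right is filled.

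Fatty acid uptake, binding and activation had the most falls of the 10 metabolic lists between AS lines and WT livers. In that comparison, 7 of its 12 genes fell and 1 rose, with a median of -2.73, where 11.1% of all genes fell and 17.6% rose. Slc27a5 had 5.39, 5.62 and 5.52 in AS lines, against 9.35, 11.20 and 11.20 in WT livers, and fell by 5.07 (SE 0.523, adjusted p = 0.00164). Fabp1, the liver fatty acid binding protein, had 8.89, 8.65 and 5.21 in AS lines, against 10.84, 12.31 and 12.39 in WT livers, and fell by 4.26 (SE 1.08, adjusted p = 0.0345). Slc27a2 fell by 4.95 (adjusted p = 0.0167). The riser, named after its value was seen, was Acsl4, the arachidonate-preferring acyl-CoA synthetase, at 1.65 (adjusted p = 0.000858). With 1 array left out, 2 (without WT liver 2 or 3) to 8 (without AS line 2) of the 12 fell. Slc27a5 and Acsl4 passed in all 6 of those fits, while Fabp1 was lost without any 1 WT liver and Slc27a2 without WT liver 2, WT liver 3 or AS line 3. Against KO livers 1 of the 12 fell and 1 rose, where 10.1% of all genes fell and 11.4% rose. The gene that fell was Fabp4, a fatty acid binding protein of endothelium, macrophages and fat. Fabp4 fell by 4.91 (adjusted p = 0.0291), a call kept only without AS line 2 among the 6 fits that left out 1 array. The endothelial list was lower in AS lines than in KO livers for 15 of 15 genes (median -6.11) and the Kupffer cell list, markers of liver macrophages, for 11 of 11 (median -5.33). The mean of the Kupffer cell list was 5.95 to 6.20 in AS lines, 11.34 to 11.92 in KO livers and 11.30 to 11.84 in WT livers, and the part of these cells in the Fabp4 difference was not tested. Acsl4 rose by 1.58 against KO livers (adjusted p = 0.00250), and passed in all 6 such fits. The hepatocyte mean was 8.01 to 9.93 in AS lines, against 9.10 to 12.56 in KO livers and 11.17 to 12.40 in WT livers, and its part in these differences was not tested.

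Among the receptors, partners and coactivators, Ppargc1a, the coactivator PGC-1α that drives mitochondrial and oxidative genes, had 9.61, 9.57 and 9.05 in AS lines, then 5.95, 6.79 and 5.73 in KO livers, and 6.79, 6.62 and 6.39 in WT livers. All AS lines were above all livers, and both calls held in every fit that left out 1 array. The difference was 3.25 against KO livers (SE 0.323, adjusted p = 0.00251) and 2.81 against WT livers (SE 0.194, adjusted p = 0.000401). Against KO livers 1 of the 11 genes rose and 1 fell, and against WT livers 3 rose and 1 fell. After scaling to the 75th percentile 1 rose and 3 fell against WT livers, where 2476 of all 19938 genes rose and 2884 fell. Of all genes as deposited, 11.4% rose and 10.1% fell against KO livers, and 17.6% rose and 11.1% fell against WT livers. Rxrg, a retinoid X receptor, fell by 1.16 against WT livers (adjusted p = 0.0350 in limma), with values of 5.29 to 7.41 over the 9 arrays. Rxra, another retinoid X receptor, had 9.20, 10.34 and 9.62 in AS lines. It came to -1.06 against KO livers and -0.93 against WT livers and did not pass (adjusted p = 0.0778 and 0.0626 in limma). Pparg, the receptor best known from fat cells, rose by 0.87 against WT livers (adjusted p = 0.0405 in limma) and was named after its value was seen. With 1 array left out, the Rxrg call held only without WT liver 1 and the Pparg call only without AS line 2.

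In the carnitine list, Cpt1c, the brain-enriched relative of Cpt1a, had 8.86, 9.02 and 8.74 in AS lines, then 7.82, 7.04 and 7.93 in KO livers, and 6.86, 6.90 and 6.83 in WT livers. It rose by 1.28 against KO livers (adjusted p = 0.0229) and by 2.01 against WT livers (adjusted p = 0.000118). With 1 array left out the call against WT livers held in all 6 fits, and that against KO livers was lost without KO liver 1 or any 1 AS line (adjusted p up to 0.0678). Bbox1, the last enzyme of carnitine synthesis, fell by 3.04 against WT livers (adjusted p = 0.00871). In all, 1 of 12 genes rose and 0 fell against KO livers (0 and 1 without AS line 2), and 2 rose and 2 fell against WT livers. Among 22 further PPARα targets, 2 rose and 5 fell against WT livers, and 0 rose and 1 fell against KO livers (3 and 1 without KO liver 2). Of all genes, 17.6% rose and 11.1% fell against WT livers, and 11.4% rose and 10.1% fell against KO livers. Those shares against KO livers were 9.55% and 8.79% without AS line 2, and 8.40% and 8.84% without KO liver 2. Cyp4a14 had 5.06, 4.98 and 5.10 in AS lines, against 9.71, 11.13 and 10.20 in WT livers, a fall of 5.30 (SE 0.357, adjusted p = 0.000369), and Cyp4a10, its near relative, fell by 3.89 (adjusted p = 0.00119). The 2 that rose were Acot1, a cytosolic acyl-CoA thioesterase, by 2.13 (adjusted p = 0.00688) and Vnn1, a pantetheinase, by 1.79 (adjusted p = 0.0128), both named after their values were seen. The calls of Cyp4a14, Cyp4a10, Acot1 and Vnn1 held in all 6 fits that left out 1 array. Cyp4a10 and Cyp4a14 belong to a family of similar sequences, so their signals may be shared in part.

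Pdha1, the E1α subunit of pyruvate dehydrogenase and the protein on which Pdk4 acts, had 10.83, 10.28 and 10.39 in AS lines, then 9.10, 9.44 and 9.28 in KO livers, and 8.95, 9.47 and 9.47 in WT livers. It rose by 1.23 against KO livers (adjusted p = 0.00799) and by 1.20 against WT livers (adjusted p = 0.0107). Dlat, the E2 subunit, rose by 0.68 (adjusted p = 0.00424) and 0.82 (adjusted p = 0.0228). The Pdha1 calls and that of Dlat against KO livers held in all 6 fits that left out 1 array, while Dlat was lost against WT livers without any 1 AS line. Pdk4 was the 1 gene of the 12 in this list that fell with all arrays as deposited. A second gene fell against KO livers without AS line 2, where 8.79% of all genes fell. Against WT livers a second gene fell after scaling to the 75th percentile, where 2884 of all 19938 genes fell. Pdk1 came to -0.90 (SE 0.511, adjusted p = 0.291) against KO livers. In glycolysis 4 of 15 genes rose against KO livers and 7 of 15 against WT livers, with none falling. Of all genes, 11.4% rose and 10.1% fell against KO livers, and 17.6% rose and 11.1% fell against WT livers. Without AS line 2, 6 rose and 3 fell against WT livers, where 16.5% and 10.5% of all genes did. Over the fits that left out 1 array the count of risers was 2 to 4 against KO livers and 4 to 7 against WT livers. The 2 came without KO liver 3, where 5.13% of all genes rose, and the 4 without WT liver 3, where 10.3% did. In the TCA cycle 5 of 15 rose against KO livers and 6 of 15 against WT livers, again with none falling. After scaling to the 75th percentile 3 of 15 rose against WT livers, where 2476 of all 19938 genes rose and 2884 fell. Idh3a, a subunit of isocitrate dehydrogenase, rose by 1.66 against KO livers (adjusted p = 0.0171) and by 1.55 against WT livers (adjusted p = 0.0331). Mdh2, mitochondrial malate dehydrogenase, rose by 1.05 (adjusted p = 0.00282) and 1.09 (adjusted p = 0.00171). Mdh2 passed in all 6 fits that left out 1 array in each comparison, whereas Idh3a missed the threshold against KO livers without any 1 KO liver or AS line 2, and against WT livers in every such fit but that without AS line 3. The count of TCA cycle genes that rose was 2 to 6 of 15 against KO livers (2 without KO liver 1 or 3, 3 without AS line 2) and 2 to 5 against WT livers (2 without WT liver 2 or 3, 3 without AS line 1 or 2). Of all genes, 4.95%, 5.13% and 9.55% rose against KO livers without KO liver 1, KO liver 3 and AS line 2. Against WT livers 9.69%, 10.3%, 17.5% and 16.5% rose without WT liver 2, WT liver 3, AS line 1 and AS line 2.

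By the rule of closest pattern, the genes most like the mean of the 8 genes over the 6 livers were Rnf186, Car14, Slc22a23, Hook1, Xylb, Stard13, Gfra1, Grhpr, Gltpd2 and Cdhr5, with Pearson correlations of 0.996 to 0.999. Rnf186 had 5.94, 7.43 and 5.50 in KO livers 1 to 3, against 5.94, 6.98 and 6.84 in WT livers 1 to 3, the same high and low arrays as Ppara. Over all 9 arrays, Mettl7b (r = 0.990), F11 (r = 0.987) and Slc23a1 (r = 0.987) were most like Ppara. F11, coagulation factor XI, is made by hepatocytes. The genes most like Pdk4 were Ssh2 (r = 0.985), Rnf115 (r = 0.984) and Lcp1 (r = 0.983), and Lcp1, a leukocyte actin-bundling protein, had 7.20, 8.76 and 5.89 in AS lines against 11.24 to 11.58 in the livers. The arrays share their groups and their normalization, so these correlations describe the arrays.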

How the data were processed

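Expression was measured on 9 arrays, 3 per group, with groups taken from the labels. The authors deposited log2 values for probe sets, made with RMA and the oligo package per the submitters' processing notes; versions and detection calls were not given there. Array medians ran from 6.53 to 6.63. The array number, 3 per group, limits the precision; a low value can be background, which understates a fold. Nothing in the labels links an array to a scan date, so batches could not be examined. The labels call the samples biological replicates. The shared extraction text names PHH as the RNA source without explaining it.

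Of 35556 probe sets, 21789 had 1 gene in the platform annotation, 1621 had several and 12146 were unnamed; the gene IDs of 21698 were found in a RefSeq table, which changed 0 symbols. The probe set of highest mean was kept per gene, which left 19938 genes. For every comparison, limma 3.58.1 in R 4.3.3 was run 2-sided on the 6 arrays concerned; p-values were adjusted by Benjamini-Hochberg over the 19938 genes and called at 0.05. Differences are between group means of log2 values. Tables and figures used Python 3.11.15, pandas 2.3.3 and matplotlib 3.10.9. The members and lists were chosen with earlier results of these data known. From each list, up to 3 genes of largest difference per comparison were eligible to be named; genes of closest pattern were taken by Pearson correlation. Listed genes without a 1-gene probe set were not used here.

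The procedure was run on simulated data with known changes, with noise drawn separately for each gene and array. That run does not cover shifts shared by many genes of an array. The settings varied were a block for replicate number, a single fit of the 9 arrays, an intensity trend, a filter on dim genes, 2 other scalings, the mean of probe sets, array weights, each array left out, an adjusted p of 0.10 and, for the livers, a hepatocyte covariate. List counts without single arrays and under the other scalings were added after seeing the data.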

Additional observations from a re-analysis of the deposited data

How the results depend on the processing

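Of 128 differences of the 8 genes recomputed under alternatives for KO livers against WT livers, 108 kept their direction and side of the threshold, and so did 108 of 120 for each comparison of the AS lines. Counts are not in that tally. For KO livers against WT livers, 2 genes passed with all 9 arrays in 1 fit, 366 at an adjusted p under 0.10 (316 higher, 50 lower) and 5744 with array weights (3905 higher, 1839 lower). With array weights 2 of the 8 genes passed, Ppara at -2.03 (adjusted p = 0.0444 in limma, 0.0444 to 0.961 over its alternatives) and Acadm at -0.89 (adjusted p = 0.0476, 0.0476 to 0.957). Leaving out 1 array gave 0 to 1949 genes and 0 to 1 of the 8 for KO against WT livers (60 genes without WT liver 1). It gave 2281 to 4048 genes and 0 to 1 for AS lines against KO livers, and 3397 to 5435 genes and 0 to 2 for AS lines against WT livers. The lowest counts came without KO liver 1 (2281), KO liver 3 (2310), WT liver 2 (3397) and WT liver 3 (3556). Pdk4 ranged from -3.39 to -2.29 against KO livers and from -2.98 to -1.88 against WT livers. It missed the threshold without AS line 1 or any 1 KO liver, and without AS line 1 or any 1 WT liver. Signs of KO livers minus WT livers turned for Acadl (-0.11 by 75th percentile scaling, -0.0568 by repeated quantile normalization, -0.31 by array weights) and Hadha (-0.0388 by scaling, -0.0653 by weights). With the hepatocyte covariate they turned for Ppara (0.51), Cpt1a (0.27), Cpt2 (0.47), Acadm (0.21) and Ehhadh (0.66). For AS lines minus KO livers, array weights turned Ppara (0.75) and Ehhadh (0.18). For AS lines minus WT livers, Cpt2 turned to -0.20 by scaling, -0.15 by repeated quantile normalization and -0.16 by weights. Leaving out 1 array also turned signs of KO livers minus WT livers: Cpt1a ran from -0.59 to 0.0597, Cpt2 from -0.92 to 0.0391, Acadl from -0.20 to 0.29, Ehhadh from -1.999 to 0.0326 and Hadha from -0.0277 to 0.25. For AS lines minus KO livers, Ppara ran from -1.04 to 0.97, Ehhadh from -1.55 to 0.48 and Cpt2 from -0.0238 to 0.93. For AS lines minus WT livers, Cpt2 ran from -0.36 to 0.33 and Hadha from -0.28 to 0.00814. The cause was not tested, except that fewer arrays enter a fit that leaves 1 out. Under 75th percentile scaling the all-gene median was -0.18 for KO against WT livers and -0.19 for AS lines against WT livers, where 2476 genes were then higher and 2884 lower, against 3506 and 2209 as deposited. List counts, chosen for this after seeing the data, also moved without KO liver 2: for KO against WT livers, 2 genes of the receptor list, 3 of glycolysis and 1 each of the uptake, peroxisomal, ketone and pyruvate dehydrogenase lists passed, and for AS lines against KO livers 1 of the receptor list and 2 of the carnitine list. Of all genes, 9.78% and 17.2% passed in these fits, in that order. Without WT liver 1, and also under 75th percentile scaling, 1 ketone gene was lower in AS lines than in WT livers, and under that scaling 3 peroxisomal genes were. Same-numbered arrays did not deviate together in every pair (correlations 0.31, 0.43 and -0.39 for KO with WT livers), so the numbers were not taken to pair animals. With the replicate number as a block, 0, 1 and 1 of the 8 genes and 0, 3426 and 4494 genes passed for KO against WT livers, AS lines against KO livers and AS lines against WT livers, and the adjusted p of Pdk4 was 0.261, 0.0426 and 0.0299.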
